A study of Mus musculus with 4 samples.

Results

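Multiciliated cells of the mouse trachea were studied in 4 single-cell RNA libraries, 1 for each combination of genotype and region. A cell was taken as multiciliated when its UMIs (unique molecular identifiers, each marking 1 captured RNA molecule) of Tmem212, Ccdc153, Cfap126 and Rsph1 came to at least 10 per 10000, with at least 3 of the 4 genes detected and no UMI of Ptprc, the pan-leukocyte gene. Because the cells were selected on measured values, the levels of those 4 genes and of genes that go with them are given as descriptions. The rule was applied to barcodes with at least 500 genes, at least 5000 UMIs and at most 15% mitochondrial UMIs, and it took 1752 of 31167 such cells. Of these, 95 came from knockout dorsal trachea, 179 from knockout ventral trachea, 1074 from control dorsal trachea and 404 from control ventral trachea.

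Per the labels, mice of both genotypes carried P63-CreER, a tamoxifen-activated Cre, together with Ki67-lsl-Dre, a second recombinase, and its reporter Rosa26-rsr-GFP. Knockouts were Ctnnb1-fl/fl and controls Ctnnb1-fl/+, so that controls also carried 1 floxed allele of Ctnnb1 (beta-catenin). All mice received tamoxifen, and tracheae were taken 10 days later and split into a dorsal and a ventral part before dissociation with papain. The Cre is driven by P63 and so acts in basal cells, the progenitors of the airway surface. Multiciliated cells could have lost Ctnnb1 or gained the reporter only by descent from such a cell. How many mice stand behind each library, and their age, is not given in the sources used. With 1 library per group no test across samples was possible: every interval below is a 95% interval for counting error only, and every difference lies between libraries.

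Multiciliated cells carry many motile cilia whose beat moves mucus along the airway. Each motile cilium is an axoneme of microtubule doublets around a central pair, on which outer and inner dynein arms generate force while radial spokes and nexin links control it. Airway progenitors take this fate where Notch signalling is low: Gmnc, Mcidas, Myb and Foxj1 switch on centriole amplification through deuterosomes and then the axonemal genes, many of which are bound by RFX factors at X-box motifs in their promoters.

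Genes that set the cells apart from all other cells were named first, without a test, because the rule acted on the same cells. A total of 1408 genes reached 100 CPM (the counts-per-million level, over the summed UMIs of the cells) in the multiciliated cells of every library, and 276 of them exceeded the other cells of every library by at least 10-fold. At least 50-fold was reached by 167. The furthest apart were Gm21149, with a smallest ratio over the libraries of 374, Cdh26, an atypical cadherin (365), Fam166b (348) and Sntn (346), whose product lies at the tips of motile cilia. Among the role lists, 13 of the 16 inner dynein arm genes found in the files passed 10-fold in every library, as did 14 of 19 central apparatus genes, 22 of 33 genes for microtubule inner proteins and tektins, 16 of 27 radial spoke and nexin link genes and 8 of 14 outer dynein arm genes. Intraflagellar transport, which also serves the primary cilia of other cells, had 12 of 38.

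The promoters of the 30 genes furthest apart are shown by 4 examples, because most of those matched share 1 short motif. RefSeq promoters (GRCm38.p6, 250 bases before to 50 after the start) were found for 21 of the 30, and 7 motifs were searched on both strands. GTTGCC, the core of 1 arm of the X-box, was present in 14 of the 21 (66.7%) and in 14.1% of promoters of 27025 genes. In the sequences below the capitals mark GTTGCC or its reverse complement GGCAAC, and each is read 5′ to 3′ along its gene. The promoter of Sntn lies at chr14:13670626-13670925 on the plus strand with the motif 66 bases before the start. That of Dynlrb2, a light chain of dynein, lies at chr8:116504765-116505064 on the plus strand with the motif at 51 bases before. Fam183b (chr11:58801911-58802210, minus strand) holds 2 copies, the first at 67 bases before the start. Cfap161 (chr7:83794790-83795089, minus strand), for a microtubule inner protein, holds 3.
Sntn: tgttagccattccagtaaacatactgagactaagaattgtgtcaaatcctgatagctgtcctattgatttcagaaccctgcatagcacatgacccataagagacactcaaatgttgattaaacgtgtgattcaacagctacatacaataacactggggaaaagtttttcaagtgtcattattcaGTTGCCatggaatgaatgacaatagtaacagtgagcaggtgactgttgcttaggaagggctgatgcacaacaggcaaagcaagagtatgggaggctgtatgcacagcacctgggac
Dynlrb2: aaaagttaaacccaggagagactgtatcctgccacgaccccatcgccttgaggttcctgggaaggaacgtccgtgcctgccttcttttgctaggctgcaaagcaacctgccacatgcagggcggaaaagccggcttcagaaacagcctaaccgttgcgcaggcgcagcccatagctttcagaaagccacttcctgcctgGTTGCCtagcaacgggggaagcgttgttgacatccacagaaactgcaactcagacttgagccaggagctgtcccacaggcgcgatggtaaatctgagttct
Fam183b: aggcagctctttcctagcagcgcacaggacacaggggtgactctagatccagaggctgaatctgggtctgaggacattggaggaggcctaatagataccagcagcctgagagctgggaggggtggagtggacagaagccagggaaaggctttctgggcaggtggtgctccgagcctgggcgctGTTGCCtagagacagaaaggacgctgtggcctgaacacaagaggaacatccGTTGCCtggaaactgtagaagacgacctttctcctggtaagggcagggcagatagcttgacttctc
Cfap161: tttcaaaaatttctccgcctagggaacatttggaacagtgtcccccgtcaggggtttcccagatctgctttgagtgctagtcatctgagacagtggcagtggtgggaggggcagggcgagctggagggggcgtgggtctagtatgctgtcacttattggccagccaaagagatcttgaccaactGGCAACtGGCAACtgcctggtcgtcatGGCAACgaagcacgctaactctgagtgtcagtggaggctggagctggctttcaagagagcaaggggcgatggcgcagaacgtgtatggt

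Beside this core, exact facing arms with 2 bases between them, which contain GTTGCC, were in none of the 21 and in 0.111% of all promoters. Of the forkhead motifs, TGTTTAC was in 9.52% of the 21 and 4.05% of all, TGTTTGT in 14.3% and 7.60%, and TGTTTAT in 4.76% and 5.28%. CTTTGA, the core of the motif of the TCF factors that partner beta-catenin, was in 9.52% and 18.2%, and the E2F motif TTTCGCGC in 0 of 21 and 0.374%. Facing arms at other spacings or with inexact letters were not searched. These are matches of letters in a fixed window, read from an older build than the GRCm39 of the count files.

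The label was checked on Foxj1, the master regulator of motile ciliogenesis, and Dynlrb2, neither of which the rule used. Foxj1 UMIs were found in 1737 of the 1752 cells and Dynlrb2 UMIs in 1740. Foxj1 stood at 691 CPM in knockout dorsal, 856 in knockout ventral, 917 in control dorsal and 943 in control ventral multiciliated cells. In the other epithelial cells it stood at 26.6, 13.3, 13.4 and 15.1 CPM in the same order of libraries, and in cells marked as fibroblasts at 5.30 to 8.60 CPM. Near the limit of the rule, 32 cells with 10 to 12 UMIs per 10000 included 28 with Foxj1 and 30 with Dynlrb2, and 32 cells left out with 8 to 10 included 26 with each. The rule sum itself had medians of 53.1, 43.9, 53.2 and 51.7 per 10000 in that order.

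Other lineages left unequal traces. Summed markers of basal cells reached 1.95% to 3.83% of their level in basal-marked cells, those of fibroblasts 0.232% to 0.946% of the level in fibroblast-marked cells, and those of T cells under 0.06%. The T cell list includes Ptprc, which the rule held at 0. Hillock markers reached 19.9% to 21.4% of the level in hillock-marked cells, outside the knockout ventral library (41 such cells), mostly through Lgals3 and Cldn3. These stood at 1447 and 905 CPM of a sum of 2375 in knockout dorsal multiciliated cells, and at 1402 and 636 CPM in secretory-marked cells there. Krt13, also on the list, stood at 2.71, 8.71 and 0.310 CPM in knockout dorsal, control dorsal and control ventral multiciliated cells. Macrophage markers reached 11.8% to 18.8% of that in macrophage-marked cells, mostly through Lyz2. At least 3 of them were found in 6.32% of knockout dorsal, 18.99% of knockout ventral, 4.097% of control dorsal and 12.9% of control ventral cells. Secretory markers reached 25.5% of the level in secretory-marked cells in the knockout dorsal library, 15.4% in the knockout ventral, 17.0% in the control dorsal and 10.2% in the control ventral library. At least 3 of the 12 gland markers were found in 49.5% of knockout dorsal, 97.2% of knockout ventral, 31.8% of control dorsal and 98.3% of control ventral multiciliated cells, and their summed level was 7435, 6597, 4981 and 3809 CPM in that order. Of the 12, 5, 2, 3 and 1 were at 0. Lyz2 made up most of the summed level, at 6322, 5203, 4096 and 2724 CPM in that order. In secretory-marked cells it stood at 7251 to 12363 CPM. Lipf, also on the list, had 0 CPM in knockout dorsal and 902 in knockout ventral multiciliated cells, beside 964 in knockout ventral fibroblast-marked cells. The count of cells with these markers thus moved with region, in the opposite direction to the sum led by Lyz2. Their part in the regional differences below was not tested. Doublets called by Scrublet made up 1.05%, 16.8%, 4.47% and 0.495% of the multiciliated cells in that order, at a fixed calling rate in the knockout ventral library and automatic thresholds in the others, and all calls were kept in the values below unless stated. The multiciliated cells had median depths of 37690 UMIs in the knockout dorsal, 40769 in the knockout ventral, 23080 in the control dorsal and 31129 in the control ventral library, and totals of 4422488, 7614404, 27082409 and 12891419 UMIs. No barcode was shared between multiciliated cells of different libraries, and 13 to 31 barcodes were shared between kept cells of any 2 libraries.

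Multiciliated cells made up a smaller share of the epithelium in the knockout dorsal library than in any other. They were 2.93% of epithelial cells there (exact interval 2.38 to 3.57) and 7.29% in knockout ventral trachea (6.29 to 8.39), against 12.1% in control dorsal (11.5 to 12.8) and 9.85% in control ventral trachea (8.96 to 10.8). The knockout share was thus 0.241 of the control share dorsally (0.196 to 0.296) and 0.740 ventrally (0.625 to 0.876). The dorsal share was 0.402 of the ventral in knockouts (0.315 to 0.513) and 1.23 of the ventral in controls (1.11 to 1.37). The last of these turned to 0.965 (0.867 to 1.07) when cells marked as gland or thyroid, nearly all of them ventral, were taken out of the denominator. Of all kept cells the shares were 1.67%, 3.13%, 9.15% and 5.04% in the order knockout dorsal, knockout ventral, control dorsal and control ventral. Fewer multiciliated cells in the tissue and fewer released or captured from it cannot be told apart, and the minimum of 5000 UMIs had removed 507, 998, 1507 and 1722 barcodes in that order.

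**Figure D1:**
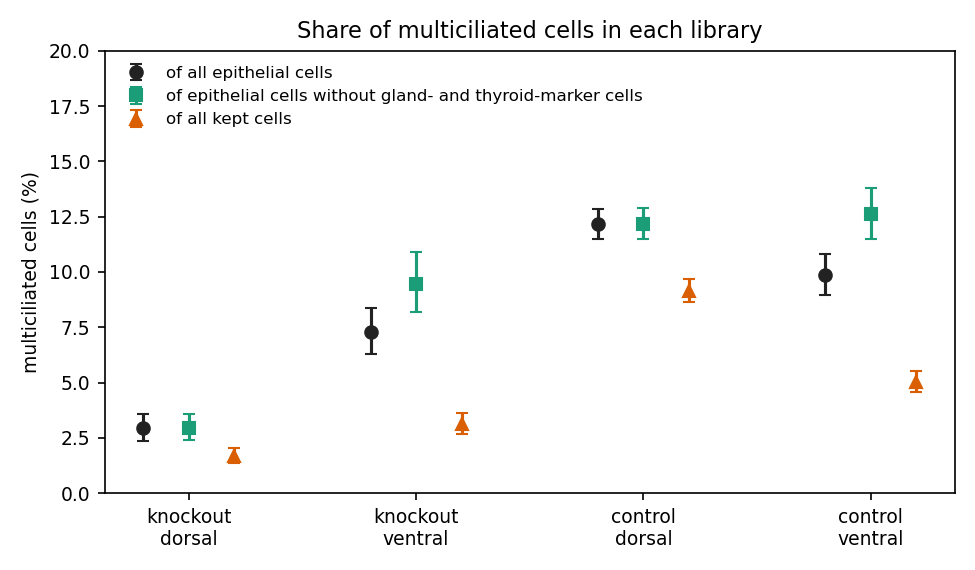
Share of multiciliated cells in each library (vertical axis, percent) out of epithelial cells, epithelial cells without gland- and thyroid-marked cells, and all kept cells, with bars for exact 95% counting intervals. The knockout dorsal library is lowest with each denominator, and the control libraries differ in order between denominators.

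The targeted gene was read first for the comparison of genotypes. Ctnnb1 stood at 260 CPM in knockout dorsal and 269 in knockout ventral multiciliated cells, against 299 in control dorsal and 297 in control ventral cells. That is 0.869 of the control level dorsally (0.816 to 0.924) and 0.907 ventrally (0.859 to 0.957). In basal-marked cells it stood at 207 and 230 CPM in the knockout dorsal and ventral libraries, against 282 and 281 in the controls, and in fibroblast-marked cells, where the Cre is not expected, at 93.9 and 130 CPM against 127 and 151. The deleted segment is not given in the sources used here and reads from a 5′ kit may lie outside it, so these levels do not check the deletion.

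For the comparisons below, UMIs were summed over the multiciliated cells of a library, and a gene entered when it had at least 50 UMIs and 20 CPM in 1 library of the pair. A ratio past 2-fold is a description of 2 libraries. For knockout over control, 0.691% of 6799 genes were past 2-fold higher and 1.35% past 2-fold lower dorsally, and 0.399% and 0.371% of 7009 genes ventrally. For dorsal over ventral, 1.03% of 6887 genes were higher and 4.3% lower in knockouts, and 0.978% and 0.879% of 7057 genes in controls. The median gene lay at -0.18 (log2) for knockout over control dorsally, -0.07 ventrally, -0.14 for dorsal over ventral in knockouts and -0.05 in controls. The shift differed with transcript length: the shortest quintile of genes had a median of -0.0004 and the longest of -0.32 for knockout over control dorsally, -0.14 and -0.01 ventrally, 0.12 and -0.42 for dorsal over ventral in knockouts, and -0.03 and -0.12 in controls. Under median-of-ratios scaling, which moves the median gene near 0, the share of higher genes among those past 2-fold was 52.5% in place of 33.8% for knockout over control dorsally, 33.1% in place of 19.4% for dorsal over ventral in knockouts and 63.5% in place of 52.7% in controls.

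Few ciliary genes were past 2-fold between libraries. Of the 12 lists on ciliary roles, those for inner dynein arms (16 genes that passed the filter), dynein assembly factors (16), radial spokes and nexin links (25), the central apparatus (18), microtubule inner proteins and tektins (31), intraflagellar transport (36) and adenylate and creatine kinases (13) had 0 genes past 2-fold in either direction in any of the 4 comparisons. Their medians ran from -0.49 to 0.03 on the log2 scale, and the medians of all genes of like length from -0.43 to 0.12. The background of all genes past 2-fold was 0.371% to 4.3% in these comparisons, a few genes at most in lists of this size. The inner dynein arm genes were all below 0 for knockout over control dorsally and for dorsal over ventral in knockouts (0 of 16 above), as were the 19 central apparatus genes. Their medians were -0.38 and -0.31 in the first of these comparisons and -0.49 and -0.33 in the second, beside -0.32 and -0.24, and -0.43 and -0.27, for genes of like length.

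Of 13 regulators that passed the filter, 0 were past 2-fold for knockout over control in either region or for dorsal over ventral in controls, and for dorsal over ventral in knockouts 1 was higher and 1 lower. Among the RFX factors, which bind X-boxes, Rfx2 stood at 56.1 CPM in knockout dorsal and 97.3 in knockout ventral cells, against 89.8 in control dorsal and 95.02 in control ventral cells. Rfx3 stood at 172, 284, 209 and 287 CPM in that order. The knockout dorsal cells were lowest for both. Genes of the commitment step were low and uneven: Mcidas, which drives centriole amplification, had 13.3 and 2.23 CPM in knockout dorsal and ventral cells, against 8.68 and 4.34 CPM in control dorsal and ventral cells. Ccno, a cyclin-like factor of that step, stood at 48.2 and 19.8 CPM in knockout dorsal and ventral cells, against 29.7 and 22.5 in controls, and its dorsal over ventral ratio in knockouts was 2.43 (1.962 to 3.01).

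Among the centriole and basal body genes, Cep128, a subdistal appendage gene, was the 1 past 2-fold for knockout over control dorsally, at 0.496, and none was past it ventrally. It stood at 63.1 CPM in knockout dorsal and 96.5 in knockout ventral cells, against 127 in control dorsal and 137 in control ventral cells. Both knockout libraries lay under both controls. Deup1, the deuterosome scaffold, stood at 49.3 and 35.5 CPM in knockout dorsal and ventral cells, against 51.7 and 41.7 CPM in controls. The knockout dorsal level includes the cell of 120439 UMIs named above, which held 722 CPM of Deup1.

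The outer dynein arms held the heavy chain gene with the widest regional difference. Dnah9, the chain of the distal part of the cilium, stood at 314 CPM in knockout dorsal and 792 in knockout ventral cells, and at 475 in control dorsal and 781 in control ventral cells. Dorsal cells were lower in both genotypes, at 0.396 (0.373 to 0.420) of the ventral level in knockouts and 0.608 (0.592 to 0.624) in controls. Genes of like length had median ratios of 0.698 and 0.910, so the difference was larger than theirs. Its partner Dnah5, found along the whole cilium in human airway cells, was at 598 and 1007 CPM in knockout dorsal and ventral cells, and at 847 and 1124 CPM in control dorsal and ventral cells, giving ratios of 0.594 and 0.753. Hydin, a giant protein of the central apparatus, had ratios of 0.598 and 0.850, and the inner arm chain Dnah3 had 0.505 and 0.858. These long genes lay nearer to the ratios for their length than Dnah9 did.

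Some shorter axonemal genes were nearly even across the libraries. Tekt1, a tektin inside the doublet, stood at 281 and 302 CPM in knockout dorsal and ventral cells, against 298 and 292 CPM in controls. The radial spoke gene Rsph4a stood at 247 and 264 CPM, against 267 and 254 CPM. The intraflagellar transport gene Ift88 stood at 345 and 354 CPM, against 384 CPM in both controls. A single axonemal gene of the inner protein list differed by region in both genotypes: Cfap107 had 3.62 CPM in knockout dorsal and 19.3 in knockout ventral cells, and 4.73 in control dorsal and 19.2 in control ventral cells. Its dorsal over ventral ratios were 0.187 (0.104 to 0.315) and 0.247 (0.198 to 0.307), but it stayed under the 20 CPM minimum and was singled out after its values were seen.

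Among the tubulin genes, Tubb4b, the beta tubulin of axonemes, stood at 2052 and 2300 CPM in knockout dorsal and ventral cells, against 2008 and 2370 in control dorsal and ventral cells. Of 20 tubulin and tubulin-modifying genes that passed the filter for dorsal over ventral in knockouts, 3 were past 2-fold lower: Agbl4, a deglutamylase, and the polymodifying enzymes Ttll5 and Ttll10. In controls 0 of 21 were, and for knockout over control 1 of 20 was lower dorsally and 0 of 21 ventrally. Prickle2, a planar polarity gene, was the 1 of 14 apical membrane and polarity genes past 2-fold, again for dorsal over ventral in knockouts, at 0.469.

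**Figure D2:**
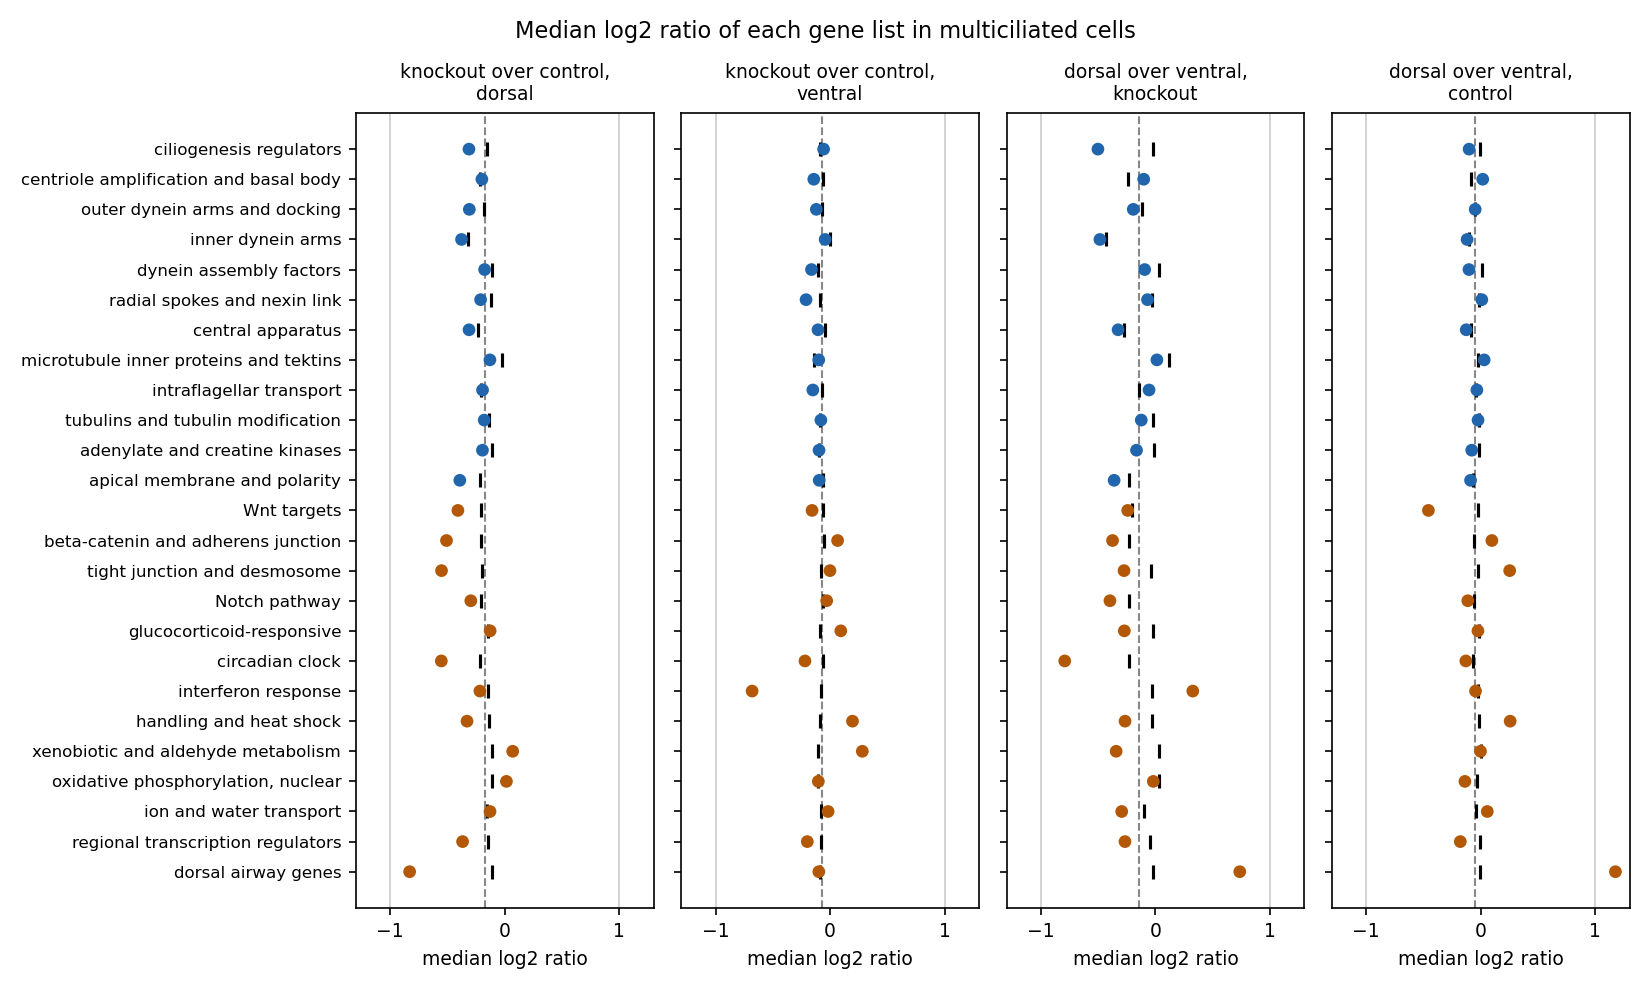
Median log2 ratio of each gene list for the 4 comparisons, in multiciliated cells, with ciliary role lists in blue and other lists in orange; the dashed line is the median of all genes and the black tick the median of genes of like length. The lists furthest from the marks are orange in each comparison, and the blue list furthest from them is that of ciliogenesis regulators for dorsal over ventral in knockouts.

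Dorsal and ventral multiciliated cells shared part of their differing genes between genotypes. Of 6702 genes tested in both, 24 were past 2-fold higher in dorsal cells of knockouts and controls, out of 52 in knockouts and 51 in controls, and 35 were past 2-fold lower in both, out of 270 and 52. Many were not particular to these cells. Of those also tested in secretory-marked cells of controls, 18 of 55 were past 2-fold higher there too (1.55% of all genes) and 27 of 34 lower (2.59%). In knockouts it was 21 of 50 (1.59%) and 52 of 140 (3.87%). Serpinb11, a clade B serpin, had the lowest dorsal over ventral ratio of the genes named by rule. It stood at 20.1 CPM in knockout dorsal and 291 in knockout ventral cells, and at 8.90 in control dorsal and 409 in control ventral cells. Its ratios were 0.069 (0.055 to 0.086) in knockouts and 0.022 (0.019 to 0.025) in controls. In secretory-marked cells of the same libraries they were 0.123 and 0.103.

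Ventral cells also held more RNA of Eya4, a phosphatase and transcriptional coactivator, with 4.75 CPM in knockout dorsal and 46.0 in knockout ventral cells, and 9.56 in control dorsal and 45.2 in control ventral cells. The teneurin Tenm3 had 2.94 and 25.1 CPM in knockout dorsal and ventral cells, and 7.02 and 30.5 CPM in control dorsal and ventral cells. The protocadherin Pcdh7 had 5.65 and 41.4 CPM in knockouts, and 12.7 and 46.9 CPM in controls, dorsal first. All 3 were lower in dorsal than in ventral cells, whichever genotypes were paired. For Eya4 this was not limited to multiciliated cells, where the ratios were 0.103 in knockouts and 0.212 in controls. They were 0.101 and 0.212 in secretory-marked and 0.084 and 0.117 in basal-marked cells. Basal-marked cells of the knockout and control ventral libraries held 87.6 and 97.0 CPM of it.

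A2ml1, a protease inhibitor, was the most abundant of the ventral genes. It had 1412 CPM in knockout dorsal and 3677 in knockout ventral cells, and 1120 in control dorsal and 2724 in control ventral cells, with ratios of 0.384 and 0.411. Cdh26, which was also among the genes that set the cells apart, had 153 and 360 CPM in knockout dorsal and ventral cells, and 177 and 401 CPM in control dorsal and ventral cells, with ratios of 0.425 and 0.442. Other genes of the rule included Zfp521, 9830166K06Rik, Gm31063 and Wdr20rt. The last 3 were at least 12.6 times as high in multiciliated as in the other cell classes of any library, and their ratios lay between 0.130 and 0.305. Isl1, a LIM homeodomain factor from the list of regional regulators, had 2.94 and 18.1 CPM in knockout dorsal and ventral cells, and 4.21 and 21.6 CPM in control dorsal and ventral cells.

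Dorsal cells held more RNA of Areg, a ligand of the EGF receptor, and of 2 genes of Wnt signalling. Areg had 184 CPM in knockout dorsal and 35.9 in knockout ventral cells, and 236 in control dorsal and 34.8 in control ventral cells, with ratios of 5.13 (4.47 to 5.91) and 6.80 (6.17 to 7.496). Lgr6, an R-spondin receptor, had 68.7 and 17.5 CPM in knockout dorsal and ventral cells, and 52.8 and 4.96 CPM in control dorsal and ventral cells, with ratios of 3.94 (3.20 to 4.86) and 10.6 (8.28 to 13.9). Porcn, the acyltransferase that makes Wnt proteins secretable, had 98.8 and 33.9 CPM in knockouts and 137 and 36.3 CPM in controls, dorsal first. Other epithelial cells were higher dorsally too. In secretory-marked cells the ratios in knockouts and controls were 2.77 and 5.58 for Areg and 1.95 and 2.79 for Lgr6. In basal-marked cells they were 2.12 and 3.23 for Areg and 1.35 and 1.92 for Lgr6.

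Coagulation factor F5 had dorsal over ventral ratios of 4.27 in knockouts and 6.19 in controls, the actin-binding gene Marcks 2.61 and 2.17, and the calponin Cnn2 2.53 and 4.00. Without doublets the knockout ratios of F5 and Cnn2 were 7.01 and 4.35. Lurap1l was also on this list. Marcks did not differ in this way in secretory-marked cells, where its ratios were 0.887 and 1.10. In those cells Porcn had 5.55 and 5.69, F5 6.01 and 3.73, and Cnn2 1.29 and 1.94. Upk3bl, of the fixed list of dorsal airway genes, had 16.1 CPM in knockout dorsal cells (71 UMIs) and 0.394 in knockout ventral cells (3 UMIs), and 28.7 in control dorsal (778 UMIs) and 1.01 in control ventral cells (13 UMIs). Its ratios were 40.8 (13.4 to 202) and 28.5 (16.6 to 53.7). The list of 9 had medians of 0.74 in knockouts and 1.18 in controls, and in controls -0.08 without doublets. Scgb1a1, Scgb3a2 and Hp, products of secretory cells, completed the rule and are described with those products.

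**Figure D3:**
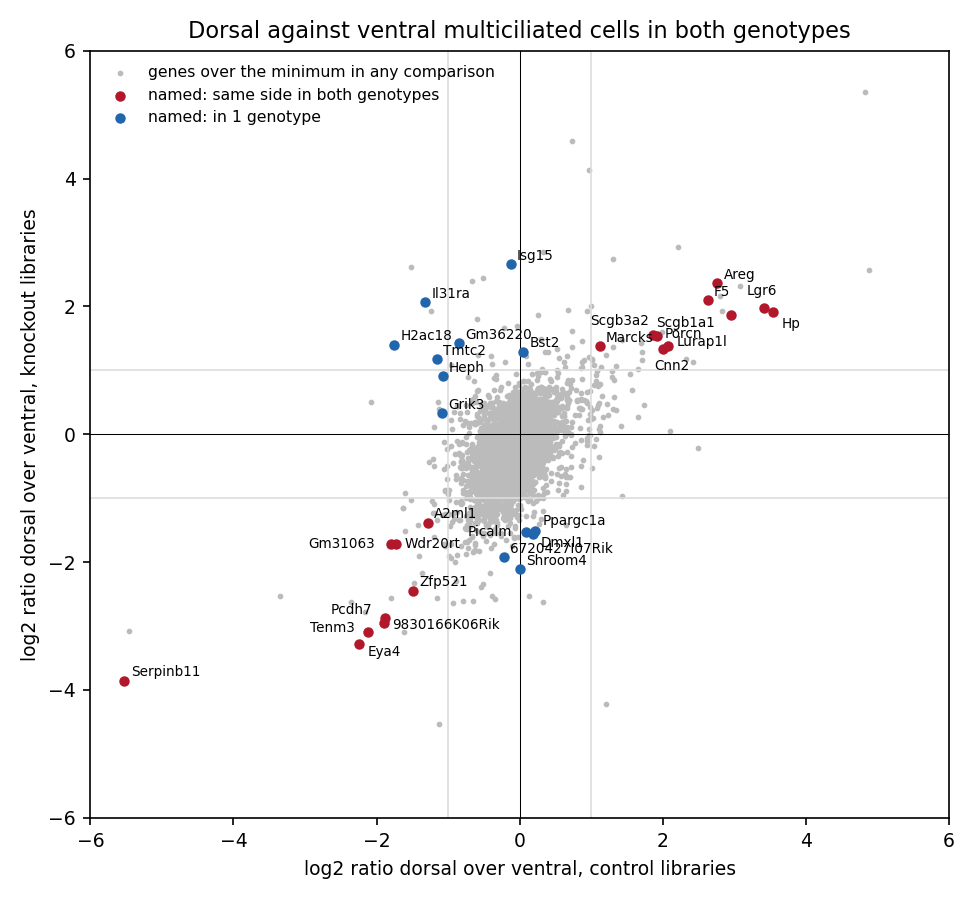
Each point is a gene over the minimum in any comparison, at its log2 ratio of dorsal over ventral multiciliated cells in knockouts (vertical axis) and in controls (horizontal axis), with genes named by rule labelled in red (same side in both genotypes) or blue (in 1 genotype). Serpinb11 is the labelled gene furthest to the lower left, and grey lines mark 2-fold.

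Within a library the regional genes did not mark all cells. In a count made after the values were seen, at least 2 of Serpinb11, Eya4, Tenm3 and Pcdh7 were detected in 12.6% of knockout dorsal, 62.0% of knockout ventral, 9.12% of control dorsal and 61.6% of control ventral multiciliated cells. At least 2 of Areg, Lgr6, F5 and Porcn were detected in 90.5%, 44.1%, 72.2% and 26.7% in that order. Both sets were detected in 11.6%, 26.8%, 6.70% and 18.8%, and neither in 8.42%, 20.7%, 25.4% and 30.4%. The cells were not thinned for this count, and the dorsal control cells were the shallowest. Serpinb11 UMIs were found in 48.6% of knockout ventral and 62.9% of control ventral multiciliated cells, and in 2.32% and 2.65% of fibroblast-marked cells of those libraries, whose median depths were 10937 and 12146 UMIs.

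**Figure D4:**
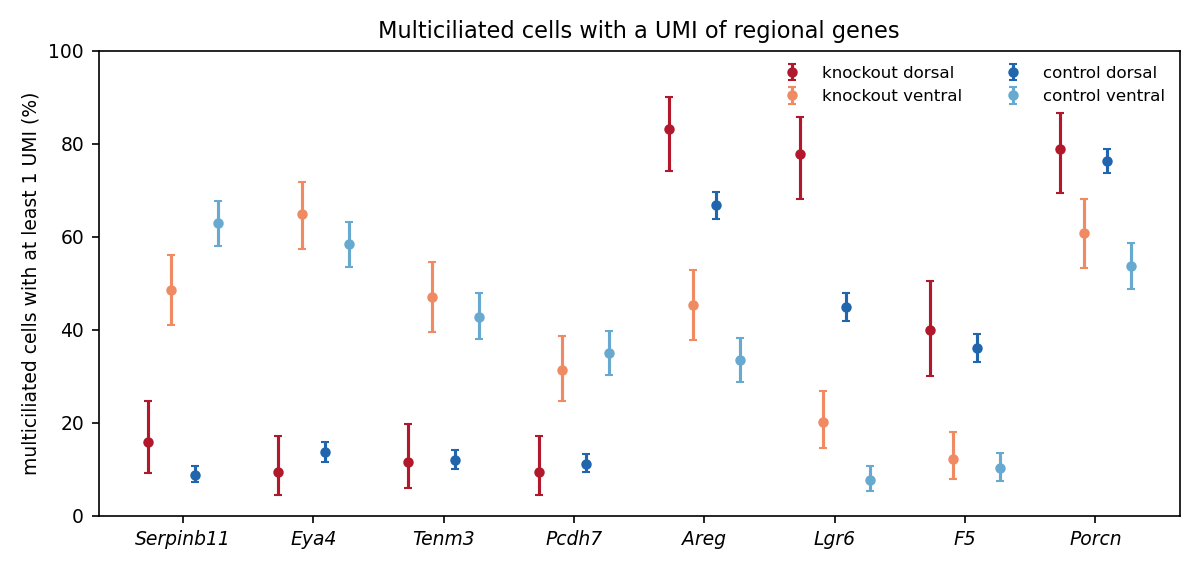
Percent of multiciliated cells of each library with at least 1 UMI (vertical axis) of 4 ventral genes (left) and 4 dorsal genes (right), unthinned, with bars for exact 95% counting intervals. Serpinb11 was found in 15.8% of knockout dorsal, 48.6% of knockout ventral, 8.85% of control dorsal and 62.9% of control ventral cells, and Areg in 83.2%, 45.3%, 66.8% and 33.4%.

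Knockout and control cells differed by few genes that both regions shared. Of 6566 genes tested in both regions, 4 were past 2-fold higher in knockout cells of both, out of 26 dorsally and 15 ventrally, and 9 were past 2-fold lower, out of 78 and 17. Across these genes the log2 ratios of the 2 regions had a Pearson correlation of 0.089, while the dorsal over ventral ratios of the 2 genotypes had 0.675 over 6702 genes. Both are descriptions, since genes are not independent.

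Among the genes higher in knockouts of both regions, Hspa1b, an HSP70 gene, had 324 CPM in knockout dorsal and 303 in knockout ventral cells, against 146 in control dorsal and 166 in control ventral cells, with ratios of 2.22 (2.09 to 2.36) and 1.83 (1.72 to 1.94). Hsp90aa1 had 4966 and 4679 CPM in knockout dorsal and ventral cells, against 3404 and 3261 CPM in controls. The Hspa1b ratios, dorsal first, were 1.13 and 0.944 in fibroblast-marked, 2.49 and 0.857 in basal-marked and 1.56 and 0.824 in secretory-marked cells.

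Pigr, which carries IgA across the epithelium, had 273 and 242 CPM in knockout dorsal and ventral cells, against 111 and 133 CPM in controls, and its ventral ratio of 1.81 was 1.08 without doublets. The annexin Anxa8 had 264 and 174 CPM against 154 and 68.9, and the calmodulin-like gene Calml3 205 and 251 CPM against 122 and 83.4, in the same order. Pon1, Gm47283, Chd9, Hp, Scgb1a1 and Bpifa1 completed the 10. The ratios of Chd9, a chromatin remodeller, were 1.68 and 1.62, but 0.979 dorsally without the secretory-rich cells described below and 0.959 ventrally without doublets. Those of Pon1 were 2.37 and 2.26, but 0.126 ventrally without doublets.

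Lower in knockouts were Itln1, an intelectin of goblet cells, and some clock genes, the clock list more so dorsally. Itln1 had 76.4 CPM in knockout dorsal and 72.6 in knockout ventral multiciliated cells, against 219 in control dorsal and 168 in control ventral cells. In secretory-marked cells it had 12.04 and 11.6 CPM in the knockout libraries, against 975 and 1183 CPM in the controls. In multiciliated cells without the secretory-rich ones the dorsal ratio was 1.67 in place of 0.350 and the ventral ratio 0.879 in place of 0.432.

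Dbp, an output gene of the circadian clock, had 37.1 CPM in knockout dorsal and 35.1 in knockout ventral cells, against 74.99 in control dorsal and 70.3 in control ventral cells, with ratios of 0.494 (0.419 to 0.580) and 0.499 (0.434 to 0.573), or 0.550 and 0.524 under median-of-ratios scaling. The period gene Per3 had 19.9 and 38.0 CPM against 50.2 and 61.8, and Per2 had 36.9 and 55.5 CPM against 79.8 and 80.4, knockout first and dorsal first within each genotype. Of 14 clock genes that passed the filter dorsally, 3 were past 2-fold lower and 0 higher, and of 15 ventrally 1 was lower and 0 higher. The list had medians of -0.55 dorsally and -0.22 ventrally, with 0 of the 19 measured genes above 0 dorsally and 8 of 19 ventrally. For dorsal over ventral in knockouts its median was -0.79, and 4 of 15 clock genes were past 2-fold lower and 0 higher. In controls that median was -0.13, with 0 of 14 past 2-fold. The knockout dorsal library thus lay furthest from the others. In fibroblast-marked cells the Dbp ratios were 0.150 and 0.111. The hour at which each trachea was taken is not given in the sources used here, and its part in the result was not tested.

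Other genes lower in both knockout libraries included Lsmem1, Ifi27, Lrrc18, Rab3gap2, Iqcc and Ero1a. Lrrc18, at least 183 times as high in multiciliated cells as in the other classes, had 47.3 and 47.2 CPM in knockout dorsal and ventral cells, against 79.3 and 91.5 CPM in controls. Iqcc had 42.5 and 40.8 CPM against 67.8 and 81.0. Ifi27, induced by interferon, had 262 and 344 CPM against 490 and 561, in that order.

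Some genes differed between genotypes more in 1 region than in the other or in opposite directions. Il31ra, a cytokine receptor, had 175 CPM in knockout dorsal and 41.6 in knockout ventral cells, against 36.1 in control dorsal and 90.0 in control ventral cells. The same order held for H2ac18, a histone H2A gene, at 76.4, 28.9, 21.2 and 71.3 CPM, and for Tmtc2 at 181, 79.9, 54.8 and 122 CPM in the order knockout dorsal, knockout ventral, control dorsal and control ventral. Knockout dorsal and control ventral cells were the high ones.

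The same signs were found in other cells: the knockout over control ratios of Il31ra were 4.84 dorsally and 0.463 ventrally in multiciliated cells, 4.80 and 0.644 in secretory-marked cells, and 4.23 and 0.420 in fibroblast-marked cells. Grik3, a kainate receptor subunit, had 1284 and 1021 CPM in knockout dorsal and ventral cells, against 487 in control dorsal and 1029 in control ventral cells, and the iron oxidase gene Heph had 443 and 236 CPM against 165 and 347. Of the genes past 2-fold higher for knockout over control dorsally in multiciliated cells, 27 were also tested in fibroblast-marked cells, where 11 were past 2-fold higher too, beside 0.834% of all genes tested there. In secretory-marked cells it was 16 of 29, beside 0.867%. Gm36220 completed this group.

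Some genes were low in the knockout dorsal library alone. Pdk4, a kinase that restrains pyruvate use, had 53.1 CPM in knockout dorsal and 269 in knockout ventral cells, against 199 in control dorsal and 283 in control ventral cells. Ppargc1a, a coactivator of mitochondrial genes, had 102 and 291 CPM against 186 and 161, and the peroxisomal Ehhadh 8.37 and 48.2 CPM against 33.8 and 44.1, in that order. Neat1, a nuclear long noncoding RNA, had 105 and 655 CPM against 351 and 668. Its knockout over control ratio was 0.3 dorsally, beside 0.305 in secretory-marked and 0.249 in fibroblast-marked cells of the same libraries, whereas that of Ehhadh, 0.248, was 0.926 and 1.03 there. The list of nuclear oxidative phosphorylation genes had 0 of 29 past 2-fold for knockout over control dorsally, with a median of 0.01. Palld, Shroom4, 6720427I07Rik, Dmxl1 and Picalm were named by the same rule.

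Several interferon response genes were lowest in the knockout ventral cells. Isg15, a ubiquitin-like modifier, had 118 CPM in knockout dorsal and 18.7 in knockout ventral cells, against 49.1 in control dorsal and 53.5 in control ventral cells. An Isg15 UMI was found, unthinned, in 35.8%, 35.8%, 37.5% and 43.1% of the cells in that order. Its level thus differed among a minority of cells more than in the share of cells that held it. Ifit3 had 27.8 and 1.58 CPM against 20.9 and 10.6, and Ifit1 25.3 and 13.4 CPM against 39.8 and 33.4, in that order. Of 15 interferon genes that passed the filter for knockout over control ventrally, 2 were past 2-fold lower and 0 higher, with a median of -0.68 over the 29 measured (at least 10 UMIs in 1 library). Dorsally 1 of 15 was higher and 0 lower, with a median of -0.22. For dorsal over ventral in knockouts 3 of 16 were higher, Bst2 among the genes named by rule with 88.0 CPM in knockout dorsal and 35.9 in knockout ventral cells.

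Adhesion genes lay lower in the knockout dorsal library without passing 2-fold, where the median of all genes was -0.18. The list of beta-catenin and adherens junction genes had a median of -0.51 for knockout over control dorsally and 0.07 ventrally, and that of tight junctions and desmosomes -0.55 and 0.00, with 0 of their genes that passed the filter past 2-fold in either region. Cdh1, the epithelial cadherin, had 249 CPM in knockout dorsal and 450 in knockout ventral cells, against 383 in control dorsal and 416 in control ventral cells. The desmoplakin gene Dsp had 94.7 and 153 CPM against 149 and 150, in that order. For dorsal over ventral in controls 2 of 16 tight junction and desmosome genes were past 2-fold higher. One was Cldn4, a claudin, with 201 and 133 CPM in knockout dorsal and ventral cells, and 320 and 128 CPM in control dorsal and ventral cells.

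Wnt target genes were mostly too low to compare: 5 of 23 passed the filter for knockout over control dorsally and 4 ventrally, with 0 past 2-fold in either. The list median was -0.41 dorsally and -0.16 ventrally. Axin2, a feedback target of beta-catenin, had 2.71 and 6.83 CPM in knockout dorsal and ventral cells, against 3.88 and 5.58 CPM in controls. Cd44, on the same list, had dorsal over ventral ratios of 2.66 in knockouts and 4.23 in controls, but it was set aside by the rule for possible free RNA, a level under 10% of that in the highest other class. Of 10 Notch pathway genes, 3 were past 2-fold lower for dorsal over ventral in knockouts and 0 in controls: the receptor gene Notch2 had 34.6 CPM in knockout dorsal and 80.8 in knockout ventral cells, and 67.4 in control dorsal and 72.1 in control ventral cells.

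The list of immediate early and heat shock genes, which respond to tissue handling, had a median of -0.33 for knockout over control dorsally and 0.20 ventrally. The early gene Klf6 had 570 CPM in knockout dorsal and 1097 in knockout ventral cells, against 1525 in control dorsal and 1002 in control ventral cells. Hspb1 had 363 and 94.2 CPM against 122 and 76.6. In secretory-marked cells the knockout over control ratios of Klf6 were 0.280 dorsally and 0.814 ventrally, beside 0.374 and 1.09 in multiciliated cells. The part of handling in the results above was not tested. The list of detoxifying enzymes had medians of 0.07 for knockout over control dorsally and 0.28 ventrally, beside -0.18 and -0.07 for all genes, with 0 of 22 genes past 2-fold dorsally and 2 of 24 past 2-fold higher ventrally. One was the aldehyde oxidase Aox3, at 224 CPM in knockout ventral and 112 CPM in control ventral cells.

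Secretory products in multiciliated cells fell into 2 kinds. Scgb1a1, the secretoglobin of club cells, had 52317 CPM in knockout dorsal and 14302 in knockout ventral cells, against 24746 in control dorsal and 3177 in control ventral cells. The median cell, however, held 5.88, 0.935, 7.39 and 1.33 UMIs of it per 10000, and the 95th percentile was 1788, 110, 828 and 15.02, in the same order of libraries. A few cells with very high levels thus carried the sum. Scgb3a2, another secretoglobin, had 4759 and 1624 CPM in knockout dorsal and ventral cells, and 3414 and 941 CPM in control dorsal and ventral cells. Hp, haptoglobin, had 141 and 37.3 CPM, and 83.3 and 7.14 CPM, in that order. Its knockout over control ratio of 5.23 ventrally was 1.53 without doublets. The dorsal over ventral ratio of Scgb3a2 in knockouts, 2.93, was 1.17 without the cells described next but 87.0 without doublets. That of Scgb1a1 in knockouts, 3.66, was 3.30 without those cells and 141 without doublets.

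Cells with at least 100 UMIs per 10000 of Scgb1a1 and Bpifa1, another secreted airway protein, numbered 18 in the knockout dorsal, 15 in the knockout ventral, 130 in the control dorsal and 23 in the control ventral library (18.9%, 8.38%, 12.1% and 5.69%). Their median depths were 84036, 89956, 45038 and 64915 UMIs, beside 34851, 38681, 22082 and 30323 in the other multiciliated cells. Foxj1 stood at 536, 334, 582 and 531 CPM in them, and at 780, 960, 1012 and 991 CPM in the others. Scrublet called 1, 12, 21 and 0 of them doublets. They were deeper and lower in Foxj1 than the others in every library. Without them, knockout over control ratios of Scgb1a1 were 0.844 dorsally in place of 2.11 and 1.02 ventrally in place of 4.50, and those of Bpifa1 0.515 and 0.599 in place of 1.62 and 1.89.

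Cyp2f2, a cytochrome P450 of club cells, behaved otherwise. It stood at 6467 CPM in knockout dorsal and 7452 in knockout ventral cells, against 7014 in control dorsal and 6204 in control ventral cells, which was 54.5% to 68.5% of its level in secretory-marked cells. Its median per cell was 55.5, 67.7, 65.6 and 52.6 UMIs per 10000, and its 5th percentile 24.7, 14.6, 13.6 and 5.24, in the order of libraries above. In basal-marked cells it stood at 9165 to 13108 CPM, above its level in multiciliated cells in every library. In fibroblast-marked cells it stood at 86.1 to 266 CPM. The lectin Reg3g, an antimicrobial product, had 3265 and 7244 CPM in knockout dorsal and ventral cells, and 2786 and 8599 CPM in control dorsal and ventral cells, with medians per cell of 6.44, 35.4, 4.44 and 39.2. Dorsal cells were lower in both genotypes. In secretory-marked cells Reg3g had 3916 and 12539 CPM in knockout dorsal and ventral libraries, and 6509 and 14570 CPM in control dorsal and ventral libraries.

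**Figure D5:**
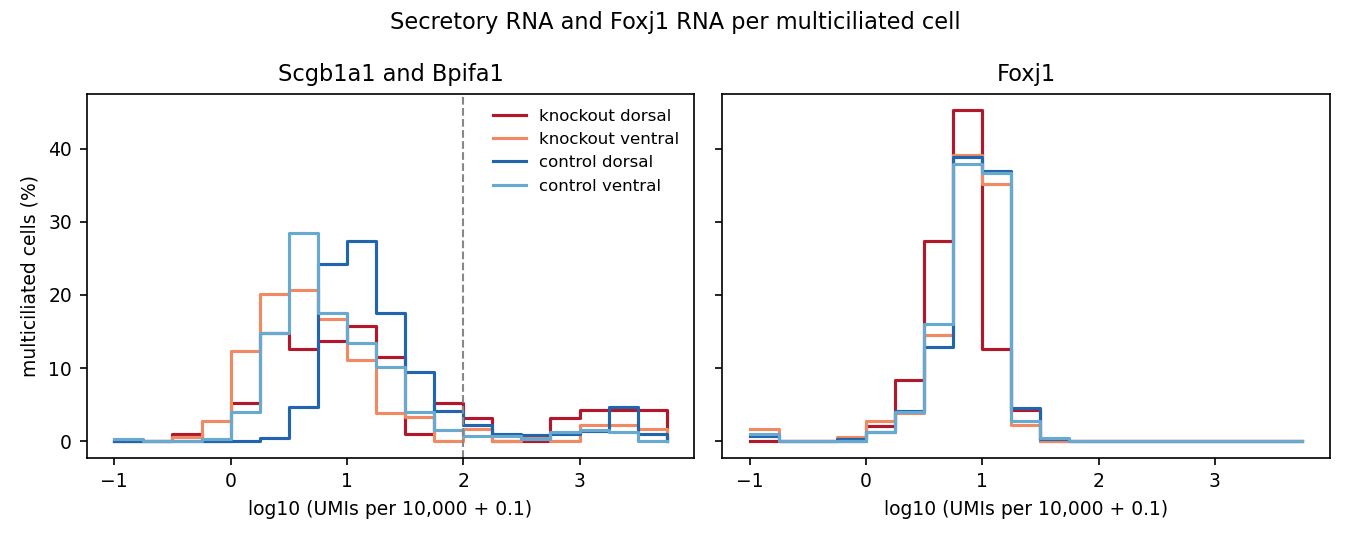
Percent of multiciliated cells of each library (vertical axis) by log10 of UMIs per 10000 plus 0.1 (horizontal axis), for the sum of Scgb1a1 and Bpifa1 (left, with a dashed line at 100 per 10000) and for Foxj1 (right). The secretory sum has a low bulk and a small tail past the dashed line in every library, and Foxj1 has a single bulk.

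The reporter eGFP marks cells descended from basal cells that divided after tamoxifen. After thinning each cell to 5000 UMIs, 57.9% of knockout dorsal and 64.8% of knockout ventral multiciliated cells had an eGFP UMI, against 59.4% of control dorsal and 63.1% of control ventral cells. Fibroblast-marked cells, in which the P63-driven Cre is not expected, had one in 32.8%, 27.1%, 37.6% and 30.3%, and chondrocyte-marked cells in 60.0%, 65.0%, 58.4% and 55.8%, in the order knockout dorsal, knockout ventral, control dorsal and control ventral. Fibroblast-marked cells had median depths of 11301, 10937, 9421 and 12146 UMIs before thinning. The shares in multiciliated cells were above those of fibroblast-marked cells in every library but their intervals overlapped those of chondrocyte-marked cells, so that descent from a basal cell is not read from a single UMI. At 10 eGFP UMIs per 10000 or more, a level reached by 8.77%, 4.72%, 24.0% and 25.6% of basal-marked cells, there were 0 of 95 knockout dorsal and 0 of 179 knockout ventral multiciliated cells (exact upper bounds 3.81% and 2.04%), against 4 of 1074 control dorsal cells (0.372%) and 2 of 404 control ventral cells (0.495%).

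Cells caught in the commitment step were few. A UMI of Deup1, Ccno, Mcidas or Cdc20b was found after thinning in 27.4% of knockout dorsal and 28.5% of knockout ventral multiciliated cells, against 24.7% of control dorsal and 28.0% of control ventral cells. In the other epithelial cells it was found in 5.56%, 8.30%, 4.94% and 8.79%, mostly through Ccno: without that gene the shares were 25.3%, 19.6%, 19.2% and 19.8% in multiciliated cells, and 0.381%, 0.615%, 0.360% and 1.03% in the others. The intervals of the multiciliated cells overlapped between all libraries, whereas the other epithelial cells of the ventral libraries lay above those of the dorsal ones. At least 2 UMIs per 10000 of Mcidas and Cdc20b, which are switched on briefly, were found in 1 knockout dorsal, 0 knockout ventral, 13 control dorsal and 1 control ventral multiciliated cell. The exact upper bound for 0 of 179 cells was 2.04%.

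The 13 control dorsal cells differed from the other 1061 in early and in some late genes of ciliogenesis. They held 912 CPM of Deup1 beside 35.4, 307 of Plk4, the kinase that starts centriole duplication, beside 13.8, 101 of the forkhead factor Foxn4 beside 0.376, and 658 of Myb beside 97.3. Foxj1 stood at 2377 CPM beside 889. Some axonemal and ciliary genes were low: Sntn had 17.8 CPM beside 710, Cdhr4 13.9 beside 630, and Tmem212, of the selection rule, 507 beside 1960. Others were not, with Tekt1 at 450 CPM beside 295, Dynlrb2 at 2079 beside 1634, and Rsph1, also of the rule, at 830 beside 602. Top2a, a topoisomerase of dividing cells, had 165 CPM beside 5.42, while Mki67, another gene of dividing cells, had 0 UMIs in the 13 cells. Another 17 cells with this level of Mcidas and Cdc20b lay outside the multiciliated cells, 8 of them in the control dorsal library with a median rule sum of 7.96 per 10000. The rule thus left out part of such cells.

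Ciliary genes varied slightly less from cell to cell than the median gene. Over 6748 genes with at least 0.5 UMIs per cell in every library, the median coefficient of variation after removal of counting noise was 0.477 in knockout dorsal, 0.519 in knockout ventral, 0.534 in control dorsal and 0.555 in control ventral cells. Over 157 genes of the axoneme and transport lists it was 0.438, 0.479, 0.462 and 0.471. The most variable genes were products of other cell types, led by Mgp and Dcn of connective tissue, whose coefficients were at least 6.47 and 5.73 in every library, followed by secretory genes such as Scgb3a1 with at least 4.23.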

How the data were processed

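Tracheal cells were profiled by droplets with the GEM-X 5′ chemistry of 10x Genomics, per the labels' protocols. The authors deposited whole UMI counts of 33697 features in each barcode, and the submitters' processing notes name Cell Ranger 10.0.0 and GRCm39. Neither the annotation release nor how barcodes were called is given in the sources used. The members and all gene lists were chosen with earlier results of these data known. UMIs were summed over the multiciliated cells of each library and written as CPM. Ratios have conditional binomial and shares exact Clopper-Pearson intervals (scipy 1.17.1), ratios of shares have log-normal intervals, and all are at 95%. Other cells were marked by the highest of their mean marker scores. Scrublet, run in scanpy 1.11.5, called doublets with automatic thresholds except in the knockout ventral library, where these took 0.376% of cells and a fixed rate was used. Medians of lists used log2 ratios with 0.5 UMIs added. The interval code was tested on simulated data. Genes named were the 10 each way with the furthest smaller interval bound on the same side in both pairs, up to 5 limited to 1 pair, the 30 with the highest smallest ratio over other cells, and members of the lists. A gene under 10% of the highest other class was set aside as possible free RNA. Other genes were chosen after their values were seen. Values of a few of these genes are not reported here.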

Additional observations from a re-analysis of the deposited data

Results flagged for a closer look

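The direction of several differences was opposite in the 2 regions or in the 2 genotypes. With 1 library per group none of these differences was tested, and chance between libraries was not measured.

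For knockout over control in multiciliated cells, Il31ra had a ratio of 4.84 dorsally and 0.463 ventrally, H2ac18 of 3.61 and 0.405, Gm36220 of 3.68 and 0.765, and Tmtc2 of 3.30 and 0.656. Isg15 had 2.40 dorsally and 0.349 ventrally, with an Isg15 UMI in 35.8% of the cells of each knockout library. Shroom4 had 0.270 dorsally and 1.16 ventrally.

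For dorsal over ventral, Il31ra had a ratio of 4.19 in knockouts and 0.401 in controls, H2ac18 of 2.65 and 0.297, Gm36220 of 2.68 and 0.557, Tmtc2 of 2.27 and 0.450, Heph of 1.88 and 0.474, and Grik3 of 1.26 and 0.473. Ppargc1a had 0.349 in knockouts and 1.16 in controls, and Dmxl1 had 0.338 and 1.13. The share of multiciliated cells among epithelial cells in dorsal over ventral trachea was 0.402 in knockouts and 1.23 in controls. The intervals of these ratios cover counting error only.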

How the results depend on the processing

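Ratios of shares taken of all kept cells were 0.183 (knockout over control, dorsal), 0.621 (ventral), 0.535 (dorsal over ventral, knockout) and 1.82 (control). Without gland- and thyroid-marked cells the dorsal over ventral ratios were 0.310 in knockouts and 0.965 in controls, the second of which changed direction. For eGFP, in the order knockout dorsal, knockout ventral, control dorsal and control ventral, at least 2 UMIs gave 27.4%, 27.4%, 26.6% and 28.2%, at least 5 UMIs 0%, 0.559%, 1.40% and 1.24%, no thinning 97.9%, 94.4%, 91.2% and 94.1%, and 10 UMIs per 10000 gave 0%, 0%, 0.372% and 0.495%. For the genes of the commitment step at least 2 genes gave 3.16%, 4.47%, 2.61% and 1.73%, no thinning 87.4%, 81.0%, 65.2% and 74.0%, and high Mcidas and Cdc20b 1.05%, 0%, 1.21% and 0.248%. Without Ccno the last 3 libraries gave 19.6%, 19.2% and 19.8%. With 10 UMIs and no CPM minimum, genes past 2-fold higher and lower numbered 446 and 1815 for knockout over control dorsally, 315 and 765 ventrally, 350 and 1617 for dorsal over ventral in knockouts and 581 and 1063 in controls. Lower genes numbered 56 under median-of-ratios scaling and 51 after centring for gene length for knockout over control dorsally, in place of 92, and 188 and 165 for dorsal over ventral in knockouts, in place of 296. Directions changed without doublets for the dorsal airway list in controls (-0.085) and, for knockout over control ventrally, for Scgb1a1 (0.103), Pon1 (0.126), Bpifa1 (0.045), Chd9 (0.959) and Shroom4 (0.942). They changed without the secretory-rich cells, chosen after seeing the data, for Scgb1a1 (0.844), Itln1 (1.67), Chd9 (0.979) and Bpifa1 (0.515) dorsally and Bpifa1 (0.599) ventrally. The causes were not tested. Of the list medians, 523 moved by little, 16 moved further and 1 changed direction; of the ratios of named genes, 269, 111 and 10. No paired analysis was possible because each group had 1 library. The number of cells and their summed UMIs limit the knockout dorsal library most, with 95 cells.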
